A study of Mus with 2 samples.

Results

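Chemokines, the small secreted proteins that steer migrating leukocytes, and their receptors were described in single-nucleus RNA sequencing (snRNA-seq) of interscapular brown adipose tissue (iBAT) of mice. Members were taken by symbol, as the ligands of the Ccl, Cxcl, Cx3cl and Xcl families and the receptors of the Ccr, Cxcr, Cx3cr, Xcr and Ackr families. The files listed 60 such symbols among 32285 genes, 38 of ligands and 22 of receptors. With at least 20 unique molecular identifiers (UMIs, 1 per captured RNA molecule) over both libraries, 28 ligands and 15 receptors were described, which made 43 of the 16290 genes at that depth. The other 17 symbols had fewer, 6 of them none (*Ccl20*, *Ccl21b*, *Ccl21c*, *Ccl27b*, *Cxcl15* and *Cxcr1*), and a count of 0 allowed a level of up to 0.121 counts per 1000000 UMIs of a library or class (CPM). Nearest to this limit, *Ccr4*, *Ccr6* and *Xcl1* were kept with 20 UMIs each, whereas *Ccl22* with 19 UMIs and *Cxcr2* with 13 UMIs were left out.

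The tissue came from C57BL/6 mice at the age of 8 weeks on normal chow. All mice carried *Wtap* alleles with exon 4 between loxP sites, encoding a subunit of the complex that writes N6-methyladenosine into mRNA. The *Wtap* flox/flox mice carried no Cre, and the *Wtap*-BKO mice also carried *Ucp1*-iCre, a recombinase read from the locus of the brown adipocyte gene *Ucp1*. Nuclei of 4 mice were pooled for each genotype, so there was 1 library per genotype, no replicate and no test between genotypes. Below, paired values give the *Wtap* flox/flox library before the library labelled *Wtap*-BKO, log2 ratios are of the latter over the former, and all intervals are 95% intervals of the counting error alone, which do not cover the spread between mice or library preparations.

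Most chemokines act through receptors coupled to Gi proteins and draw the cells that carry the receptor up a gradient of the ligand. Homeostatic chemokines such as *Cxcl12* are made steadily by stromal and vascular cells, and inflammatory chemokines such as *Ccl2* or *Cxcl10* are induced by cytokines and interferons. Atypical receptors, the Ackr family, bind chemokines without Gi signalling and mostly remove them.

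The libraries held 9494 and 8772 nuclei with 10770604 and 13945673 UMIs, a median of 954 and 1306 UMIs per nucleus, and shared 20 cell barcodes. *Wtap* did not separate them, with 50.4 and 48.3 CPM in adipocyte-like nuclei (log2 ratio -0.06, -0.27 to 0.14), but the counted 3′ end may lie outside the floxed exon, in which case this count checks nothing. Every direction below therefore rests on the label. Nuclei were clustered with the chemokine genes left out and named from marker genes. Adipocyte-like nuclei made up 71.1% and 56.4% of the nuclei, endothelial-like nuclei 12.3% and 9.63%, fibroblast-like nuclei 2.88% and 5.55%, pericyte-like nuclei 4.68% and 2.42%, and T cell-like nuclei 1.24% and 8.48%. A cluster numbered 4, with 3.20% and 13.4% of the nuclei, held all 12 macrophage markers and 8 of 10 dendritic cell markers, and its leading genes included the dendritic markers *Ciita* and *Wdfy4*, so it is called by its number. Cluster 6, with 4.42% and 4.01% of the nuclei, had only mitochondrial transcripts among its 10 leading genes and was given no name. A Schwann-like cluster of 22 and 15 nuclei was too small to be ranked with these 7 classes. Some immune nuclei fell into sub-clusters rich in adipocyte markers, 87 of 304 and 90 of 1172 in cluster 4 and 63 of 118 and 114 of 744 among the T cell-like nuclei.

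The ligands were spread over leukocyte and stromal nuclei, and the receptors lay mostly in leukocyte nuclei. By the class with the highest CPM, both libraries summed, 19 of the 43 members were highest in cluster 4 (10 ligands and 9 receptors), where 17.7% of all genes were highest. A further 10 members were highest in fibroblast-like nuclei (9 ligands and 1 receptor, against 15.5% of all genes) and 9 in T cell-like nuclei (5 ligands and 4 receptors, against 23.8%). Adipocyte-like nuclei held the highest level of 3 members (background 18.7%), endothelial-like nuclei of 1 (7.63%), pericyte-like nuclei of 1 (10.8%) and cluster 6 of none (5.9%). The highest class stood above the next by more than the counting interval for 28 members, and for the other 15 the order of the leading classes could not be read from the counts. Without nuclei of over 5% mitochondrial UMIs, 11 members were highest in cluster 4 and 3 in T cell-like nuclei, with fewer members at 20 UMIs and no share of all genes given.

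**Figure D1:**
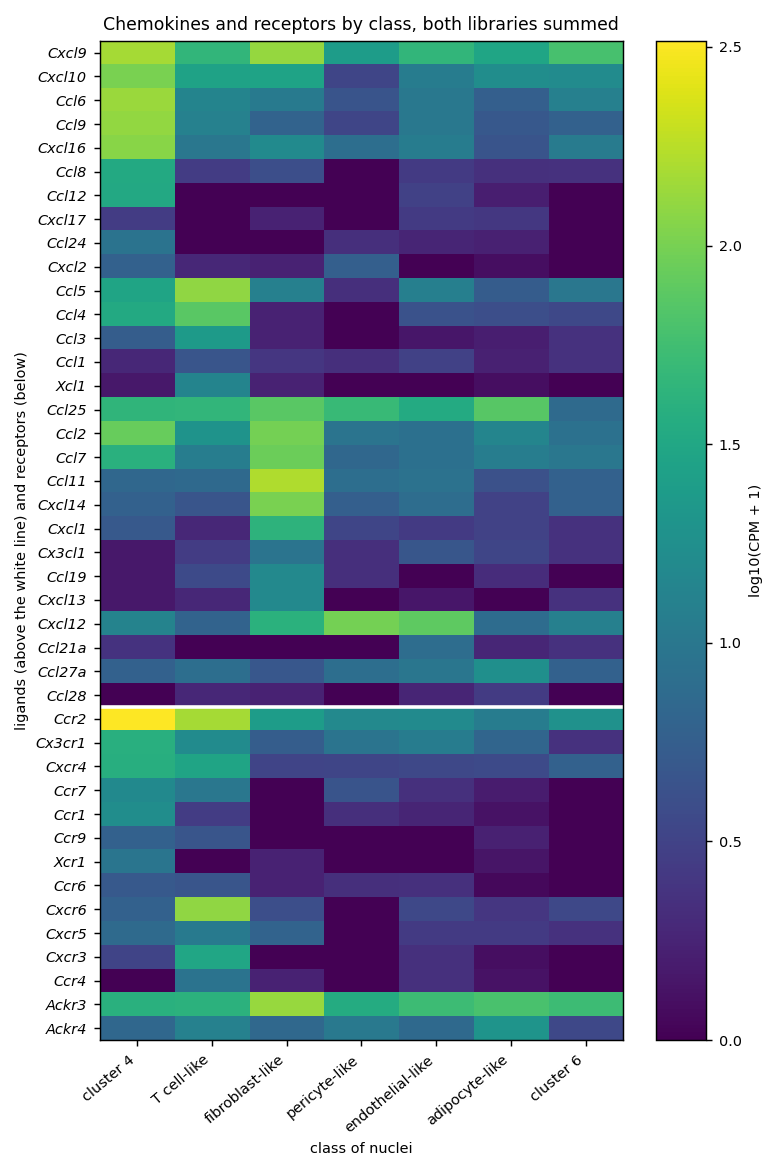
Level of each named ligand (above the white line) and receptor (below it) in 7 classes of nuclei, as log10 of CPM + 1 with both libraries summed. Receptors other than *Ackr3* and *Ackr4* are brightest in cluster 4 and the T cell-like nuclei, and a separate block of ligands from *Ccl2* to *Cxcl13* is brightest in the fibroblast-like nuclei.

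Among the ligands, several known from macrophages were highest in cluster 4. *Ccl6* (440 UMIs), *Ccl9* (393 UMIs) and *Cxcl16* (380 UMIs), the last a membrane-anchored ligand of *Cxcr6*, had 137, 128 and 115 CPM there and 4.76, 3.88 and 3.51 CPM in adipocyte-like nuclei. *Ccl8* (103 UMIs) and *Ccl12* (85 UMIs), monocyte attractants, reached 32.6 and 31.7 CPM. All 5 stood apart from their next class. The eosinophil attractant *Ccl24* (32 UMIs) was at 8.14 CPM in cluster 4. *Cxcl2* (21 UMIs), a neutrophil attractant, and *Cxcl17* (34 UMIs) were nominally highest there at 4.98 and 1.81 CPM, within the counting error of pericyte-like and endothelial-like nuclei.

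The ligands of *Cxcr3* are induced by interferons. *Cxcl9* (1196 UMIs) had 151 CPM in cluster 4 and 130.2 CPM in fibroblast-like nuclei, which did not differ beyond counting error, and its lowest level in a ranked class was 23.7 CPM in pericyte-like nuclei. *Cxcl10* (590 UMIs) was higher in cluster 4, at 100.5 CPM, than in fibroblast-like nuclei, at 28.0 CPM.

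T cell-like nuclei led for 5 ligands, among them those that activated T and NK cells release. *Ccl5* (324 UMIs) had 125 CPM there and 28.5 CPM in cluster 4, *Ccl4* (215 UMIs) had 74.3 and 33.0 CPM, and *Ccl3* (48 UMIs) had 22.4 and 4.53 CPM. *Xcl1* (20 UMIs), the ligand of the dendritic cell receptor *Xcr1*, was at 12.5 CPM. The nominal lead of *Ccl1* (26 UMIs, 3.58 CPM) rested on 4 UMIs.

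Fibroblast-like nuclei had the highest level of 9 ligands, of which *Ccl2*, *Cx3cl1* and *Ccl25* were not separated from the next class. *Ccl11* (318 UMIs), eotaxin, had 165 CPM there and 7.84 CPM in the next class, and *Cxcl14* (208 UMIs) had 101 and 7.02 CPM. *Cxcl1* (106 UMIs), a neutrophil attractant, had 41.6 CPM against 4.07 CPM in cluster 4. For the 2 ligands of *Ccr2* with the most UMIs, *Ccl7* (414 UMIs) had 87.8 CPM in fibroblast-like nuclei and 38.5 CPM in cluster 4, whereas *Ccl2* (575 UMIs) had 97.7 and 83.7 CPM, within counting error. However, 33 UMIs of *Ccl2* in cluster 4 came from 1 nucleus, and without it cluster 4 was at 68.9 CPM, below the fibroblast-like nuclei by more than the counting interval (log2 ratio of fibroblast-like nuclei over cluster 4 0.50, 0.15 to 0.85). The lymphoid tissue chemokines *Ccl19* (41 UMIs) and *Cxcl13* (23 UMIs) were both at 14.4 CPM in fibroblast-like nuclei, but 16 UMIs of *Cxcl13* came from 1 nucleus. *Cx3cl1* (62 UMIs) was at 8.33 CPM, within counting error of endothelial-like nuclei. *Ccl25* had the most UMIs of all members (1506) and no clear source, with 73.4 CPM in fibroblast-like, 71.0 CPM in adipocyte-like and 44.7 CPM in T cell-like nuclei.

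Vascular nuclei held the homeostatic ligand *Cxcl12* (474 UMIs), at 95.9 CPM in pericyte-like and 77.2 CPM in endothelial-like nuclei, within counting error of each other, then 39.4 CPM in fibroblast-like and 6.83 CPM in adipocyte-like nuclei. *Ccl21a* (35 UMIs), which guides dendritic cells into lymphatic vessels, was highest in endothelial-like nuclei at 7.02 CPM. Its near-identical copies cannot be told apart from it with certainty, nor those of *Ccl19* and *Ccl27a*. Adipocyte-like nuclei led for *Ccl27a* (323 UMIs) at 16.7 CPM against 8.67 CPM in endothelial-like nuclei, and nominally for *Ccl28* (33 UMIs) at 1.75 CPM. These 2 ligands are best known from epithelia.

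Of the receptors, *Ccr2* (1147 UMIs), which brings monocytes into inflamed tissue, had 327 CPM in cluster 4, 150.3 CPM in T cell-like and 10.3 CPM in adipocyte-like nuclei. The level in cluster 4 was the highest of any member named here in any ranked class. *Cx3cr1* (230 UMIs) was at 38.0 CPM and *Ccr1* (46 UMIs) at 16.3 CPM in cluster 4, each above its next class. *Xcr1* (26 UMIs) was at 8.60 CPM there. *Cxcr4* (170 UMIs), the receptor of *Cxcl12*, *Ccr7* (57 UMIs), which leads cells to lymph nodes, *Ccr9* (26 UMIs) and *Ccr6* (20 UMIs) had 36.6, 14.5, 4.98 and 4.07 CPM in cluster 4, none beyond counting error of the T cell-like nuclei.

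T cell-like nuclei led for the receptors of activated T cells. *Cxcr6* (187 UMIs) had 125 CPM there against 4.98 CPM in cluster 4, *Cxcr3* (45 UMIs) 29.5 against 2.26 CPM, and *Ccr4* (20 UMIs) 8.05 CPM against 1.24 CPM in endothelial-like nuclei. *Cxcr5* (64 UMIs) was nominally highest at 9.84 CPM. The atypical receptors departed from this leukocyte pattern. *Ackr3* (1484 UMIs), which clears *Cxcl12*, had 133 CPM in fibroblast-like and 61.3 CPM in adipocyte-like nuclei, and no ranked class fell under 34.3 CPM. *Ackr4* (360 UMIs), which binds *Ccl19*, *Ccl21a* and *Ccl25*, was highest in adipocyte-like nuclei at 18.9 CPM, within counting error of T cell-like nuclei at 11.6 CPM.

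The nuclei of cluster 4 and the T cell-like nuclei were clustered again on their own, which gave 15 sub-clusters, 9 of them named as leukocytes. The chemokine genes were again left out of the clustering. In monocyte-like sub-cluster 0 (38 and 353 nuclei), *Ccr2* reached 669 CPM, *Cxcl9* 259 CPM and *Cxcl10* 199 CPM. The 3 macrophage-like sub-clusters differed in their ligands. Sub-cluster 6 (24 and 119 nuclei), led by *Lyve1* and *Cd163*, had 165 CPM of *Ccl8* and 261 CPM of *Ccl6* but 32.0 CPM of *Ccr2*. Sub-cluster 10 (6 and 80 nuclei), led by *Mmp12*, *Nos2* and *Gpnmb*, had 281 CPM of *Ccl2* and 307 CPM of *Ccl9*, with 45.7 CPM of *Ccl8*. The nucleus with 33 UMIs of *Ccl2* lay in sub-cluster 10 of the library labelled *Wtap*-BKO, and without it this sub-cluster had 10 UMIs and 67.5 CPM of *Ccl2*. Sub-cluster 1 (114 and 227 nuclei) had 164 CPM of *Cxcl16* and 89.4 CPM of *Ccl7*.

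Receptors or ligands of lymphocytes and dendritic cells were found in the matching sub-clusters. *Xcr1* had 14 of its 26 UMIs in dendritic-like sub-cluster 9 (12 and 76 nuclei), at 98.5 CPM, beside 197 CPM of *Cxcl9*. In B cell-like sub-cluster 12 (8 and 57 nuclei), the B cell receptors *Ccr6*, *Cxcr5* and *Ccr7* had 114, 97.9 and 97.9 CPM, from 7, 6 and 6 UMIs. NK-like sub-cluster 7 (3 and 112 nuclei) led for *Ccl5* at 368 CPM and held 5 UMIs of *Xcl1*. T cell-like sub-cluster 3 (9 and 252 nuclei) led for *Cxcr6* at 219 CPM and *Cxcr3* at 68.0 CPM. T cell-like sub-cluster 8 (7 and 85 nuclei), led by cell cycle genes, had the most *Ccl4* at 212 CPM and the most *Ccl3* at 66.1 CPM. Sub-cluster 4 (1 and 173 nuclei), with both T cell and plasma cell genes in the lead, stayed unnamed and had 177 CPM of *Cxcr6*. Most sub-clusters had few nuclei in the *Wtap* flox/flox library, so the libraries were not compared within single ones. Sub-clusters of endothelial-like nuclei likewise split by library, and members are not described within them.

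**Figure D2:**
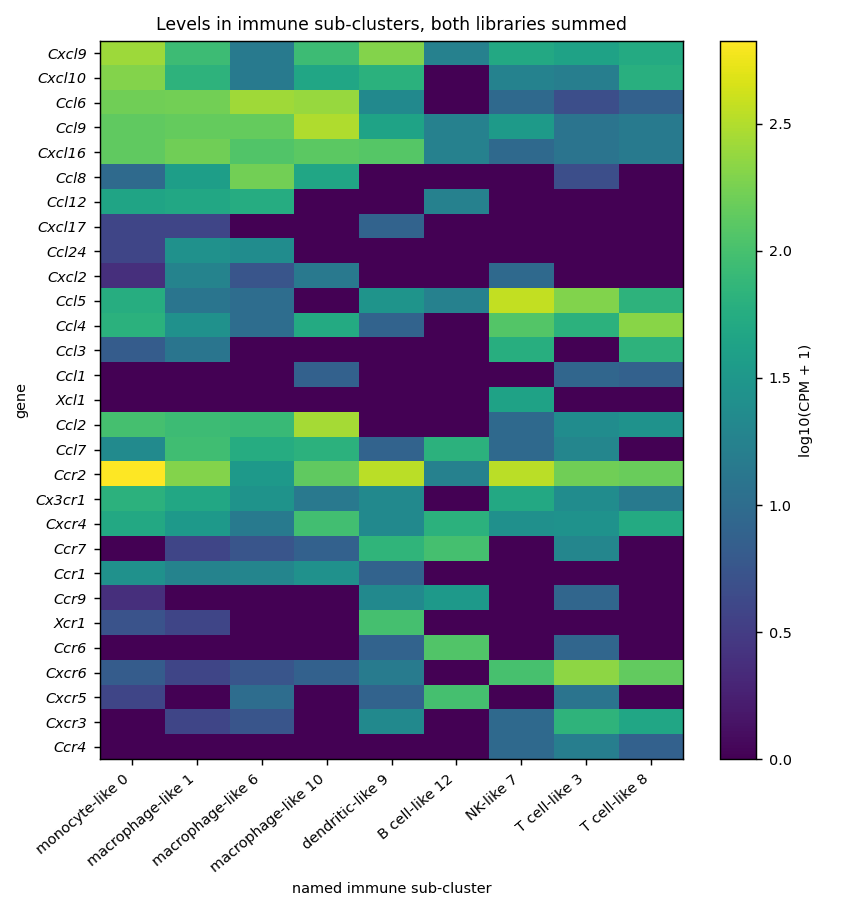
Level in the 9 named leukocyte sub-clusters of the named members highest in cluster 4 or the T cell-like nuclei, with *Ccl2* and *Ccl7* added, as log10 of CPM + 1 with both libraries summed. *Xcr1* is bright in dendritic-like sub-cluster 9, *Ccr6* and *Cxcr5* in B cell-like sub-cluster 12, and *Cxcr6* in the T cell-like sub-clusters and NK-like sub-cluster 7.

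For 25 textbook pairs of ligand and receptor among the members, the class with the highest ligand level was set beside that of its receptor. The classes differed in 22 pairs and were the same in 3, those of *Ccl12* with *Ccr2* and of *Ccl9* and *Ccl6* with *Ccr1*, all in cluster 4. How often pairs drawn from all genes differ in class is not given here, so these counts are not read as a trait of the pairs. Of the 22 pairs, 12 held a member whose highest class was not separated from the next by counting error, *Ccl2*, *Cxcl9* and *Cxcl12* among them, and 10 did not. *Ccl2* and *Ccl7* of fibroblast-like nuclei faced *Ccr2* of cluster 4, and *Ccl3* and *Ccl5* of T cell-like nuclei faced *Ccr1* of cluster 4. In the opposite direction, *Cxcl9*, *Cxcl10* and *Cxcl16* of cluster 4 faced *Cxcr3* and *Cxcr6* of T cell-like nuclei. These are levels of RNA in nuclei, and no contact between cells was measured.

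Over all nuclei, most members were higher in the library labelled *Wtap*-BKO. At least 2-fold higher were 30 of 43 members (20 ligands and 10 receptors), beside 19.8% of all genes, and none was at least 2-fold lower, beside 2.81%. The median log2 ratio was 2.53 for the members and 0.22 for all genes. In these sums, more nuclei of a type and more RNA per nucleus cannot be told apart. The share of mitochondrial UMIs was 7.60% and 11.7%. Without nuclei of over 5% mitochondrial UMIs, where fewer members reached 20 UMIs, 19 members were at least 2-fold higher and 3 lower. The share of all genes under that filter is not given here, so these counts have no background.

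The ligands of *Cxcr3* and *Ccr2* stood far apart between the libraries. *Cxcl9* had 76 and 1120 UMIs (7.06 and 80.3 CPM, log2 ratio 3.51, 3.17 to 3.86). *Cxcl10* had 17 and 573 UMIs (1.58 and 41.1 CPM, log2 ratio 4.70, 4.01 to 5.49). *Ccl2* had 30 and 545 UMIs (2.79 and 39.1 CPM, log2 ratio 3.81, 3.28 to 4.39). Its neighbour in the genome, *Ccl7*, and the third ligand of *Ccr2*, *Ccl12*, were on the same side. *Ccl7* had 18 and 396 UMIs (1.67 and 28.4 CPM, log2 ratio 4.09, 3.41 to 4.86). *Ccl12* had 8 and 77 UMIs (0.743 and 5.52 CPM, log2 ratio 2.89, 1.84 to 4.16). The ligands of T and NK cells were similarly placed. *Ccl4* had 6 and 209 UMIs (0.557 and 14.99 CPM, log2 ratio 4.75, 3.60 to 6.21), the highest ratio of any member. *Ccl5* had 26 and 298 UMIs (2.41 and 21.4 CPM, log2 ratio 3.15, 2.57 to 3.78). *Ccl3* had 2 and 46 UMIs, with 0.186 and 3.30 CPM, and *Xcl1* had 1 and 19 UMIs, with 0.0929 and 1.36 CPM. Both rest on few counts in the first library.

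The macrophage ligands of cluster 4 were also higher in the library labelled *Wtap*-BKO. *Ccl6* had 52 and 388 UMIs (4.83 and 27.8 CPM, log2 ratio 2.53, 2.11 to 2.97). *Ccl9* had 39 and 354 UMIs (3.62 and 25.4 CPM, log2 ratio 2.81, 2.33 to 3.33). *Cxcl16* had 50 and 330 UMIs (4.64 and 23.7 CPM, log2 ratio 2.35, 1.92 to 2.81). Lower counts lay on the same side, with 9 and 94 UMIs of *Ccl8* and 8 and 24 UMIs of *Ccl24*. Ligands of fibroblast-like nuclei followed. *Ccl11* had 29 and 289 UMIs (2.69 and 20.7 CPM, log2 ratio 2.94, 2.39 to 3.55). *Cxcl14* had 34 and 174 UMIs (3.16 and 12.5 CPM, log2 ratio 1.98, 1.45 to 2.56). *Cxcl1* had 5 and 101 UMIs (0.464 and 7.24 CPM, log2 ratio 3.96, 2.69 to 5.62). *Ccl19* and *Cxcl13*, both sparse, had 4 and 37 UMIs and 2 and 21 UMIs. *Cxcl12* and *Ccl25*, both made without inflammation in other tissues, differed little. *Cxcl12* had 202 and 272 UMIs (18.8 and 19.5 CPM, log2 ratio 0.06, -0.21 to 0.33), and *Ccl25* had 612 and 894 UMIs (56.8 and 64.1 CPM, log2 ratio 0.17, 0.02 to 0.32). The adipocyte ligand *Ccl27a* was lower in the library labelled *Wtap*-BKO, with 179 and 144 UMIs (16.6 and 10.3 CPM, log2 ratio -0.69, -1.01 to -0.36). The remaining ligands had intervals that held 0, with 20 and 13 UMIs of *Ccl28*, 22 and 40 UMIs of *Cx3cl1*, 12 and 23 UMIs of *Ccl21a*, 16 and 18 UMIs of *Cxcl17*, 11 and 15 UMIs of *Ccl1* and 5 and 16 UMIs of *Cxcl2*.

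Receptors of leukocytes were on the same side as the inflammatory ligands. *Ccr2* had 92 and 1055 UMIs (8.54 and 75.7 CPM, log2 ratio 3.15, 2.84 to 3.47). *Cxcr6* had 6 and 181 UMIs (0.557 and 12.98 CPM, log2 ratio 4.54, 3.39 to 6.01), the highest ratio of any receptor. *Cxcr4* and *Cx3cr1* differed less. *Cxcr4* had 27 and 143 UMIs (2.51 and 10.2 CPM, log2 ratio 2.03, 1.43 to 2.68), and *Cx3cr1* had 68 and 162 UMIs (6.31 and 11.6 CPM, log2 ratio 0.88, 0.46 to 1.31). Receptors with fewer counts had 2 and 44 UMIs (*Ccr1*), 5 and 40 UMIs (*Cxcr3*), 3 and 23 UMIs (*Xcr1*), 12 and 45 UMIs (*Ccr7*) and 3 and 17 UMIs (*Ccr4*), each at least 2-fold higher with an interval above 0. *Cxcr5* with 22 and 42 UMIs, *Ccr9* with 6 and 20 UMIs and *Ccr6* with 6 and 14 UMIs had intervals that held 0. The 2 atypical receptors differed in direction. *Ackr3* had 468 and 1016 UMIs (43.5 and 72.8 CPM, log2 ratio 0.75, 0.59 to 0.91). *Ackr4* had 182 and 178 UMIs (16.9 and 12.8 CPM, log2 ratio -0.40, -0.71 to -0.10).

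**Figure D3:**
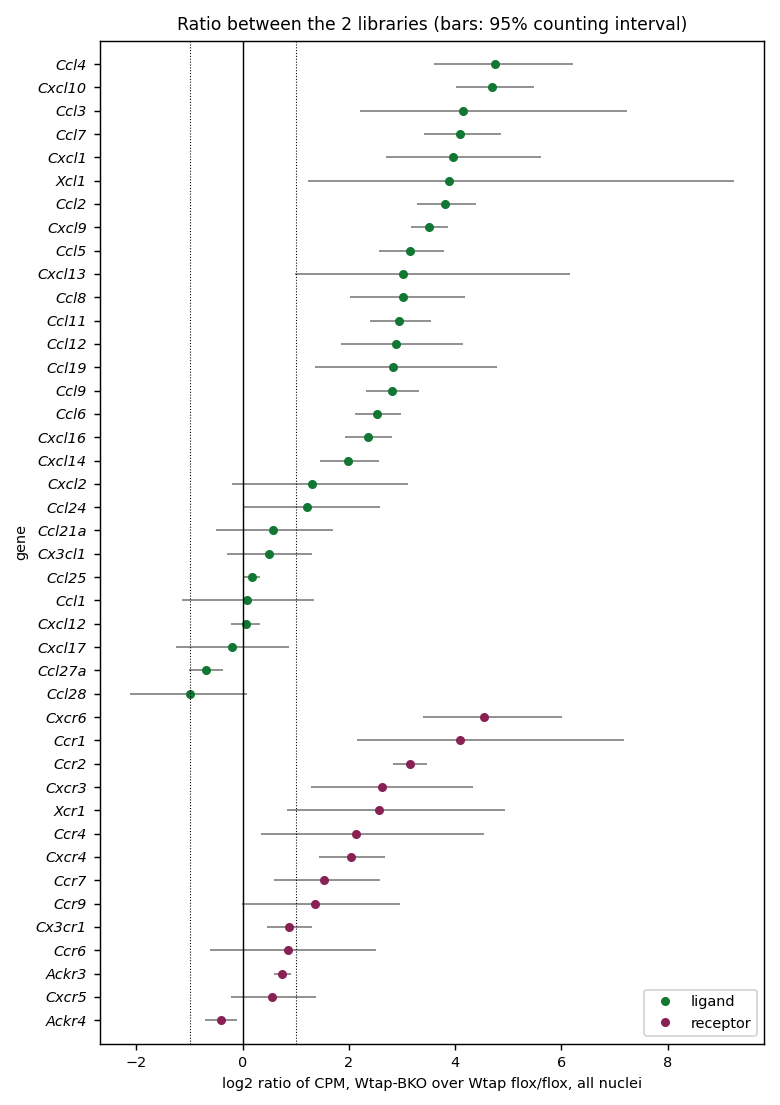
Log2 ratio of CPM over all nuclei for each named ligand and receptor, with 95% intervals of the counting error; dotted lines mark a 2-fold ratio in either direction. Ratios run from -0.99 for *Ccl28* to 4.75 for *Ccl4*, and *Ccl27a* and *Ackr4* are the members whose whole interval lies under 0.

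To set class sizes apart from levels, the level of each class in the *Wtap* flox/flox library was combined with the class sizes of the library labelled *Wtap*-BKO. Of the 30 members that were at least 2-fold higher, 22 reached 2-fold from class sizes alone, and 8 did not. Of all genes that were at least 2-fold higher, 29.1% reached it. Some of the 22 rest on very few UMIs of the *Wtap* flox/flox library. *Xcl1* had 1 there, in a fibroblast-like nucleus, *Cxcl13*, *Ccr1* and *Ccl3* had 2 each, and *Ccr4* and *Xcr1* had 3 each. The count of 22 is uncertain to that extent. For *Ccr7*, class sizes alone gave a log2 ratio of 1.54 beside the observed 1.53, and for *Ccr2* 1.72 beside 3.15. For *Cxcl10* they gave 0.32 beside 4.70, for *Cxcl9* 0.46 beside 3.51 and for *Cxcl1* 0.79 beside 3.96. The observed ratio was above that of class sizes alone for 35 of 43 members, beside 60.5% of all genes. The classes are coarse, so a shift between kinds of nuclei within a class counts here as a level. Such shifts occurred in cluster 4 and also among adipocyte-like nuclei, whose cluster 10 (described below) held 136 and 349 nuclei. In T cell-like nuclei, 63 of 118 and 114 of 744 lay in sub-clusters rich in adipocyte markers.

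**Figure D4:**
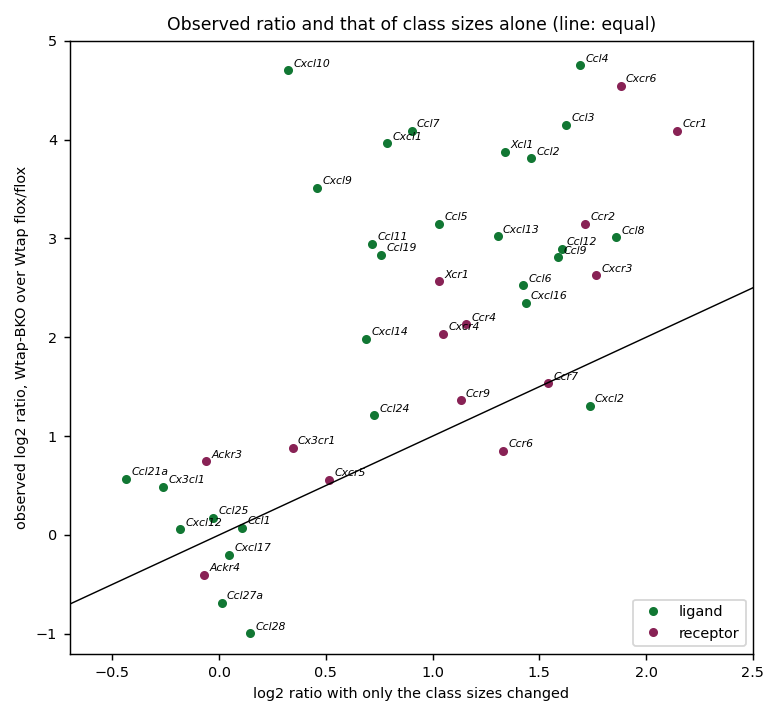
Observed log2 ratio over all nuclei against the log2 ratio that results when only the class sizes differ, for each named member, with a line where both are equal. *Cxcl10* and *Cxcl9* lie far above the line at a small ratio from class sizes, and *Ccr7* lies on it.

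Within cluster 4, 10 of 20 members with at least 20 UMIs there were at least 2-fold higher in the library labelled *Wtap*-BKO and 1 was lower, beside 12.7% and 6.12% of all genes. *Ccr2* had 161 and 356 CPM (log2 ratio 1.14, 0.74 to 1.57). *Cxcl9* had 24.3 and 173 CPM from 8 and 325 UMIs, and *Cxcl10* had 6.09 and 117 CPM from 2 and 220 UMIs. *Ccl5* had none and 63 UMIs, at least 3.67-fold higher in the library labelled *Wtap*-BKO, taking 3 UMIs as the floor of the first library. Also higher were *Ccl2*, *Ccl7*, *Ccl12*, *Ccl4* and *Ccr1*, of which *Ccl12* and *Ccr1* had intervals that held 0. *Ccl6*, *Ccl9* and *Cxcl16* were under 2-fold, with 79.1 and 147 CPM, 73.0 and 138 CPM and 76.1 and 122 CPM. Without the single nucleus named above, *Ccl2* was under 2-fold too (log2 ratio 0.91, 0.08 to 1.85). The lower member was *Cxcl12*, at 27.4 and 9.57 CPM from 9 and 18 UMIs. No member was lower at 1000 UMIs per nucleus, without nuclei of over 5% mitochondrial UMIs or without the highest doublet scores. The UMIs that *Cxcl12* kept there are not given. At 50 UMIs per gene it could not enter, so that setting tests nothing for it. Without the sub-clusters rich in adipocyte markers its log2 ratio was -1.71 (-3.04 to -0.21). Summed monocyte markers stood at 60.9 and 327 CPM (4 and 6 of 6 markers found), fibroblast markers at 88.2 and 244 CPM (9 of 9 in both) and adipocyte markers at 5258 and 4968 CPM (12 of 12 in both). Monocyte-like sub-cluster 0, where *Ccr2*, *Cxcl9* and *Cxcl10* were highest, held 38 and 353 nuclei, beside 304 and 1172 nuclei in cluster 4, and the part of these shifts was not tested. Without the sub-clusters rich in adipocyte markers, *Ccl2*, *Ccl12* and *Ccr1* were under 2-fold, with log2 ratios of 0.95, 0.83 and 0.97, *Ccl5* was at least 2.30-fold higher, and *Ccl6* had 130.3 and 163 CPM (log2 ratio 0.32, -0.27 to 0.98). In the macrophage-like sub-clusters alone (144 and 426 nuclei), 5 of 15 members were at least 2-fold higher and none was lower, beside 13.1% and 5.96% of all genes. Among these were *Cxcl9*, *Cxcl10*, *Ccl7* and *Ccl9*. Sub-cluster 10, where *Ccl9* was highest at 307 CPM, held 6 and 80 of the 144 and 426 nuclei, and the part of this shift was not tested. Summed fibroblast markers in these sub-clusters stood at 25.3 and 183 CPM (3 and 8 of 9 found) and monocyte markers at 0 and 122 CPM (0 and 4 of 6), beside macrophage markers at 7542 and 8371 CPM (12 of 12 in both), and their part was not tested.

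Within T cell-like nuclei, 9 of 13 members were at least 2-fold higher and none was lower, beside 17.3% and 8.14% of all genes. *Cxcr6* had 21.2 and 140.4 CPM from 3 and 137 UMIs, *Ccl5* 49.4 and 136 CPM from 7 and 133 UMIs, and *Ccl4* none and 83 UMIs, at least 4.02-fold. *Cxcr3* had 21.2 and 30.7 CPM, with an interval that held 0, and without the sub-clusters rich in adipocyte markers its direction turned, to 68.3 and 38.5 CPM (log2 ratio -0.83, -2.53 to 1.54). With 63 of the first library's 118 T cell-like nuclei in sub-clusters rich in adipocyte markers, the count was repeated without those sub-clusters. At least 2-fold higher were then 3 members, *Cxcr6* (1 and 117 UMIs), *Ccl5* (3 and 117 UMIs) and *Cxcl9* (1 and 32 UMIs). The intervals of *Ccl5* (-0.24 to 3.64) and *Cxcl9* (-1.52 to 6.41) held 0. Without nuclei of over 5% mitochondrial UMIs, 5 members were at least 2-fold higher, with no share of all genes given. Without the sub-clusters rich in adipocyte markers, the bound for *Ccl4* was 1.61-fold. In all T cell-like nuclei, summed T cell markers stood at 2576 and 4844 CPM (11 and 12 of 12 markers found), NK markers at 134 and 535 CPM (6 of 6 in both) and B cell markers at 191 and 1091 CPM (5 and 7 of 7). Macrophage markers stood at 56.5 and 245 CPM (5 and 12 of 12), fibroblast markers at 49.4 and 248 CPM (3 and 9 of 9) and monocyte markers at 70.6 and 212 CPM (4 and 6 of 6) there, and the part of these lists was not tested. In fibroblast-like nuclei, 10 of 12 members were at least 2-fold higher and none was lower, beside 11.3% and 4.48% of all genes. *Ccl11* had 42.1 and 202 CPM (log2 ratio 2.27, 1.46 to 3.20), *Cxcl14* 45.4 and 118 CPM (log2 ratio 1.39, 0.58 to 2.30) and *Ackr3* 42.1 and 161 CPM (log2 ratio 1.93, 1.12 to 2.87). *Ccl2* had 22.7 and 120.5 CPM from 7 and 122 UMIs, and *Cxcl1* 9.72 and 51.4 CPM from 3 and 52 UMIs. In the same nuclei the summed fibroblast markers stood at 4514 and 7617 CPM (9 of 9 in both), monocyte markers at 48.6 and 139 CPM (2 and 5 of 6), T cell markers at 35.7 and 91.9 CPM (6 and 11 of 12) and dendritic markers at 120 and 208 CPM (3 and 9 of 10), and their part in these ratios was not tested.

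Within endothelial-like nuclei, 11 of 13 members were at least 2-fold higher and none was lower, beside 14.8% and 1.84% of all genes. The 2 libraries filled different sub-clusters of this class, with 16 and 341 nuclei in sub-cluster 0 and 302 and 26 in sub-cluster 1. Sub-cluster 8 (8 and 95 nuclei) held 7 of 9 fibroblast and 7 of 12 macrophage markers. The part of these shifts was not tested. Leukocyte genes were among them, with 4.82 and 29.8 CPM of *Ccr2* and 3.45 and 17.5 CPM of *Ccl6*. Summed macrophage markers moved with them, at 151 and 544 CPM with all 12 markers found in both libraries, as did summed fibroblast markers at 174 and 747 CPM, and their part in the result was not tested. Summed endothelial markers stood at 3357 and 5448 CPM (10 of 10 found in both). *Cxcl12* had 51.7 and 115 CPM (log2 ratio 1.16, 0.72 to 1.60), and 71.7 and 136 CPM in pericyte-like nuclei (log2 ratio 0.93, 0.26 to 1.60), and *Ccl21a* had 2.76 and 13.4 CPM from 4 and 13 UMIs. With nuclei of at least 1000 UMIs only, 2 members were at least 2-fold higher, and without nuclei of over 5% mitochondrial UMIs, 3 were.

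In adipocyte-like nuclei, 16 of 27 members were at least 2-fold higher and none was lower, beside 14.6% and 4.2% of all genes. Leukocyte receptors were found there too, such as *Ccr2* at 2.63 and 17.2 CPM and *Cxcr6* at 0.263 and 2.63 CPM. Summed macrophage markers stood at 84.0 and 194 CPM and summed T cell markers at 18.8 and 71.3 CPM in the same nuclei. In the library labelled *Wtap*-BKO, *Ccr2* and *Cxcr6* were at 4.84% of the level in cluster 4 and 1.88% of that in T cell-like nuclei, and the summed macrophage markers were at 4.21% of their level in cluster 4. The leukocyte receptors ran from 1.56% (*Cxcr3*) to 15.8% (*Ccr9*) of the level in their highest class, with *Cx3cr1* at 14.1%, *Cxcr5* at 12.8% and *Cxcr4* at 8.51%. *Cxcl9* and *Cxcl10* were at 29.5% and 25.2% of their level in cluster 4, and *Ccl2* and *Ccl7* at 20.1% and 18.7% of their level in fibroblast-like nuclei, where the summed fibroblast markers were at 2.40%. *Cxcl9* had 5.26 and 51.0 CPM (log2 ratio 3.27, 2.81 to 3.78) and *Cxcl10* 1.84 and 29.4 CPM (log2 ratio 4.00, 3.22 to 4.89). *Ccl2* had 0.921 and 24.2 CPM (log2 ratio 4.71, 3.64 to 6.05) and *Ccl7* 0.790 and 19.7 CPM (log2 ratio 4.64, 3.49 to 6.11). Without nuclei of over 5% mitochondrial UMIs, 8 members were at least 2-fold higher, with no share of all genes given.

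These 4 ligands were concentrated in 1 of the 5 adipocyte-like clusters. Cluster 10 (136 and 349 nuclei) was led by *Gbp6*, *Iigp1* and other genes of interferon-induced GTPases, with the chemokines left out of the clustering. In the library labelled *Wtap*-BKO it held 7.93% of the adipocyte-like UMIs, 59.6% of those of *Cxcl9*, 63.0% of *Cxcl10*, 55.5% of *Ccl2* and 60.0% of *Ccl7*, but 11.1% of those of *Ccr2* and 4.54% of *Ccl11*. *Cxcl9* was at 108 and 383 CPM in cluster 10, and at 20.8 to 24.4 CPM in the other adipocyte-like clusters of the library labelled *Wtap*-BKO. *Cxcl10* was at 60.2 and 234 CPM in cluster 10. Both genes were thus present in this cluster in both libraries. *Ccl2* had 1 and 112 UMIs in cluster 10 (6.02 and 169 CPM), in 40 of its 485 nuclei. *Ccl7* had none and 99 UMIs, at least 8.28-fold. Summed macrophage markers in cluster 10 of the library labelled *Wtap*-BKO were at 190.1 CPM, beside 177 to 223 CPM in the other 4 clusters, and the summed adipocyte markers were at 15490 CPM. The other lists were highest in cluster 10 of the 5 clusters, with fibroblast markers at 219 CPM beside 141 to 215 CPM, endothelial markers at 202 beside 134 to 154 CPM, T cell markers at 90.5 beside 60.1 to 78.4 CPM and monocyte markers at 31.7 beside 14.9 to 27.2 CPM, and their part was not tested. *Ackr3* was also highest there in the library labelled *Wtap*-BKO, at 24.1 and 137 CPM. *Ackr4* and *Ccl27a* were not, and over all adipocyte-like nuclei they had 21.3 and 16.6 CPM (log2 ratio -0.36, -0.70 to -0.02) and 152 and 115 UMIs (log2 ratio -0.54, -0.90 to -0.18).

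**Figure D5:**
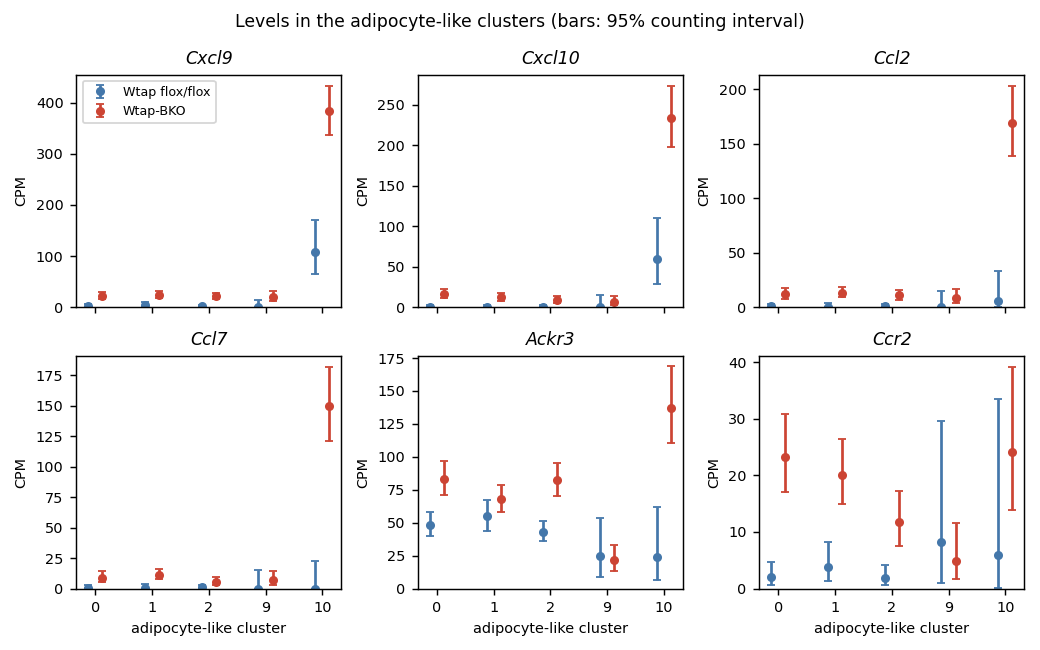
CPM of 6 members in the 5 adipocyte-like clusters of each library, with 95% intervals of the counting error. *Cxcl9*, *Cxcl10*, *Ccl2* and *Ccl7* of the library labelled *Wtap*-BKO are far higher in cluster 10 than in clusters 0, 1, 2 and 9, and *Ccr2* is not.

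Other genes of the pathway were read from 4 lists over all nuclei, beside the same 19.8% and 2.81% of all genes at least 2-fold higher or lower. Of 9 chemokines and receptors with other symbols, such as the scavenging receptor *Ccrl2* and platelet factor *Pf4*, 6 were at least 2-fold higher and none lower, with a median log2 ratio of 1.12. Of 6 sheddases and proteases that release or trim chemokines, 4 were higher and none lower (median 1.82). Of 33 signalling genes, 18 were higher and 1 lower (median 1.32), and of 17 inducers of chemokines and their relays, 8 were higher and none lower (median 0.85). The 4 highest were *Il1b*, a cytokine that induces chemokines, with 1 and 96 UMIs (log2 ratio 6.21, 3.70 to 11.53), *Tnf* with 7 and 107 UMIs (log2 ratio 3.56, 2.47 to 4.91), *Rgs1*, a brake on Gi signalling, with 6 and 87 UMIs (log2 ratio 3.48, 2.31 to 4.97), and the Src-family kinase *Fgr* with 46 and 620 UMIs (log2 ratio 3.38, 2.95 to 3.85). The single lower gene was *Rgs2*, with 8349 and 2224 UMIs (log2 ratio -2.28, -2.35 to -2.21), which was highest in adipocyte-like nuclei.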

How the data were processed

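Frozen iBAT nuclei were sequenced with 10x 3′ chemistry, 1 library per genotype. The deposited values were raw UMI counts per gene and nucleus, which the authors had made with Cell Ranger 5.0.0 on mm10, per the file headers and the submitters' processing notes. The treatment of intronic reads was not given in the sources used here. All nuclei (at least 500 UMIs) were kept. After the study's methods, the libraries were integrated with Seurat 5.3.0 (2000 variable features less 23 members, 20 PCs, resolution 0.5), and immune nuclei again on 15 PCs at 0.8. Naming a class needed 3 markers with 10 UMIs at 2-fold over all other nuclei, and an adipocyte-like cluster 50% of its markers at 1.5-fold. For each class and library, counts were summed and given as CPM, with exact Poisson and exact conditional intervals, a floor of 3 UMIs for a count of 0, and no test. All described members are named but 1, which is counted in the totals and not reported here, and values per library were given for the 10 ligands and 10 receptors with the most UMIs and for members past 2-fold whose interval left out 0, over all nuclei or in their highest class. Of the related genes, at most 4 in each direction were named. Scrublet in scanpy 1.11.5 called 3 and 0 nuclei as doublets, so its calls were not used. Intervals were checked on simulated data. Coordinates are those of RefSeq on GRCm38.p6, where 40 members matched and 15 of them overlapped another gene, such as *Cxcl10* with *Art3*, *Ackr4* with *Acad11* and *Ccl3* with *Ccl4*, which leaves their counts uncertain. Members and lists were chosen with earlier results of these data known.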

Additional observations from a re-analysis of the deposited data

Results flagged for a closer look

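*Cxcl12* differed between the libraries in opposite directions in different classes, each with a counting interval that left out 0. The log2 ratio was 1.16 in endothelial-like nuclei (51.7 and 115 CPM) and 0.93 in pericyte-like nuclei (71.7 and 136 CPM). It was -0.81 in adipocyte-like nuclei (8.82 and 5.02 CPM) and -1.52 in cluster 4 (27.4 and 9.57 CPM, from 9 and 18 UMIs). In cluster 4 it no longer counted as at least 2-fold lower at 1000 UMIs per nucleus or without the highest doublet scores. Nor did it without nuclei of over 5% mitochondrial UMIs. Its UMIs and ratios there are not given, so a loss of counts and a smaller ratio cannot be told apart. At 50 UMIs per gene it could not enter with its 27 UMIs, so that setting tests nothing for it. Without the sub-clusters rich in adipocyte markers its log2 ratio in cluster 4 was -1.71 (-3.04 to -0.21). Over all nuclei the log2 ratio was 0.06. The difference between classes was not tested, since each genotype had 1 library. Summed endothelial markers stood at 3357 and 5448 CPM in endothelial-like and 246 and 152.5 CPM in adipocyte-like nuclei, on the same sides as *Cxcl12*. They stood at 925 and 762 CPM in pericyte-like nuclei and 286 and 289 CPM in cluster 4, and their part was not tested.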

How the results depend on the processing

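With 1 library per genotype no library could be left out, and no paired analysis was possible because each group held 1 sample. Counts of members were recomputed under 10 other settings and 2 more chosen after seeing the data. Of these counts, 169 stayed within 1.5 times and 29 did not, and the causes were not tested. The share of all genes under each setting is not given here, so the counts below have no background. Without nuclei of over 5% mitochondrial UMIs, 19 members were at least 2-fold higher over all nuclei and 3 lower, 5 were higher in T cell-like, 8 in adipocyte-like and 3 in endothelial-like nuclei, and 0 lower in cluster 4; by highest class, cluster 4 then held 11, T cell-like nuclei 3, endothelial-like nuclei 2 and pericyte-like nuclei 0. With genes of at least 50 UMIs, fewer members entered: 19 were higher over all nuclei, 3 in endothelial-like nuclei and 0 lower in cluster 4, and by highest class cluster 4 held 12, T cell-like nuclei 4 and endothelial-like nuclei 0. With genes of at least 10 UMIs, 3 were lower in cluster 4 and 1 in T cell-like nuclei. With at least 1000 UMIs per nucleus, 2 were higher in endothelial-like nuclei, 1 lower over all nuclei, 1 lower in adipocyte-like nuclei and 0 lower in cluster 4. Median-of-ratios scaling gave 1 lower over all nuclei and a log2 ratio of -0.042 for *Ccl25*, reversed from 0.17. Without the highest doublet scores, 0 were lower in cluster 4. Counting nuclei with a UMI, 6 were higher in cluster 4. At a resolution of 1.0, 5 were higher in endothelial-like nuclei, which led for 2 members; libraries weighted equally also gave them 2. Without the sub-clusters rich in adipocyte markers, 3 were higher in T cell-like nuclei. *Cxcl13* had 0 and 19 UMIs in fibroblast-like nuclei, so its log2 ratios there are lower bounds, taken against the floor of 3 UMIs. The bound was -2.78 without nuclei of over 5% mitochondrial UMIs. It was -1.30 when nuclei with a UMI were counted, where the 16 UMIs of 1 nucleus count once. Such bounds under 0 give no direction. The omission of 1 nucleus for *Ccl2* was also chosen after seeing the data, and moved the log2 ratio of fibroblast-like nuclei over cluster 4 from 0.22 to 0.50. Of the log2 ratios of single members, 653 stayed within their counting interval, 33 left it and 3 were counted as reversed, the bounds of *Cxcl13* included. A change of sign inside the counting interval was not counted as reversed. *Cxcr3* in T cell-like nuclei, which ran from -0.83 to 1.45 over the settings, is an example.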

Other observations

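Many members lie in clusters of related genes, and neighbours are given here with their highest class, called nominal where counting error did not separate it from the next (RefSeq coordinates on GRCm38.p6, members at most 500000 bases apart). On chromosome 11, from 82035577 to 82179812, lie *Ccl2*, *Ccl7*, *Ccl11*, *Ccl12*, *Ccl8* and *Ccl1*. *Ccl7* and *Ccl11* were highest in fibroblast-like nuclei and *Ccl2* nominally so, *Ccl12* and *Ccl8* in cluster 4, and *Ccl1* nominally in T cell-like nuclei. Farther along the chromosome, from 83525778 to 83664683, *Ccl5*, *Ccl3* and *Ccl4* were highest in T cell-like nuclei and *Ccl9* and *Ccl6* in cluster 4. On chromosome 9, *Cxcr6* was highest in T cell-like nuclei, and its neighbours *Xcr1*, *Ccr1* and *Ccr2*, and nominally *Ccr9*, in cluster 4. On chromosome 5, *Cxcl1* (fibroblast-like) and *Cxcl2* (nominally cluster 4) lie between 90891245 and 90905938, and *Cxcl9* (nominally cluster 4) and *Cxcl10* (cluster 4) between 92321331 and 92348889.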
